A study of Mus musculus with 30 samples.

Results

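The brains of 10 mice without intact Tmem106b (genotype label Tmem106b -/-, KO) were compared with those of 10 mice with both copies (Tmem106b +/+, WT). These are 20 of the 30 brains of the series and were chosen by the genotype label alone; the other 10 came from Tmem106b +/- mice (HET) and are shown beside them. All mice were 8 months old, and each genotype held 6 mice labelled cohort 1 and 4 labelled cohort 2, with as many females as males in each cohort. Total RNA of the cerebral hemispheres was sequenced, and RNA integrity numbers (RIN) ran from 8.5 to 10.0 in KO and from 9.0 to 10.0 in WT. The sources used here do not give the strain, the way the gene was targeted, any further allele or the meaning of the cohort number.

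TMEM106B is a glycoprotein of the membrane of lysosomes and late endosomes. It takes part in the acidification, size and transport of lysosomes, binds the vacuolar proton pump, and is encoded at a risk locus for frontotemporal dementia with progranulin deficiency. Oligodendrocytes, which make myelin, carry much of it in the brain, and their myelin genes were known to be low in mice that lack the gene. The values below are therefore mainly those of genes outside that set. They come from whole tissue, where fewer cells of a type and less RNA per cell cannot be told apart.

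The level of each gene is given as the deposited log2 value, which is scaled to gene length and library, and a difference of 1 between brains is a doubling. Tmem106b itself checks the labels. Its level ran from 9.06 to 9.27 in the 10 WT brains, from 8.54 to 8.62 in HET and from 7.43 to 7.67 in KO. The 3 ranges did not touch, and the KO level lay 1.64 below WT on the log2 scale (difference -1.64 ± 0.03 SE; adjusted p = 3.51e-27, limma), so that reads still mapped to the gene in KO.

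Read depth is unknown, because the deposited values carry no counts, and each library's median level lay between 2.82 and 2.91. Markers of neurons, astrocytes, microglia and oligodendrocytes were present in all 20 brains. The cerebellar genes Pcp2 (8.02 to 8.71) and Gabra6 (8.78 to 9.49) were also present in all of them, although the labels name cerebral hemispheres. One KO library, replicate 4, held the highest level of the pituitary hormone Gh, 12.65, and another, replicate 9, the highest of the haemoglobin gene Hbb-bs, 12.80. The calls of most genes described below were refitted without them, with losses named. List medians are given with all libraries.

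Over 23695 genes kept, 1.00% passed the test between KO and WT (limma, adjusted p under 0.05 over all genes, here called), 0.279% higher and 0.722% lower in KO. The lists of oligodendrocyte and myelin genes accounted for 71 of the 237 calls, 70 of them lower. Outside these lists and Tmem106b itself, 165 of 23512 genes were called (0.702%), 65 higher (0.276%) and 100 lower (0.425%) in KO. These changes were small: the median size was 0.17 on the log2 scale, 98 of the 165 were under 0.2 and 20 were over 0.5. Over all genes kept the median difference was 0.01, with quartiles of -0.05 and 0.06, as the plot of difference against level shows. Of these genes 12625 lay above 0, 11070 lay below 0 and 2846 had an unadjusted p under 0.05 (limma). The same counts of the gene lists below are to be read beside these.

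**Figure D1:**
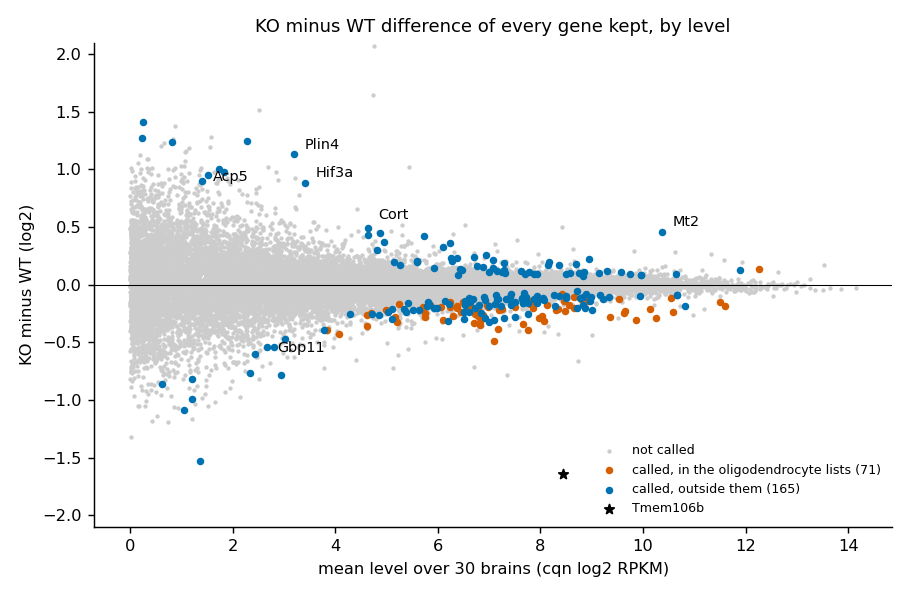
The KO minus WT difference (log2) of each of the 23695 genes kept is plotted against its mean level over 30 brains (cqn log2 RPKM), with called genes in colour. Most called genes outside the oligodendrocyte lists lie at levels above 4 and differ by less than 0.5, while the differences over 0.5 belong to genes of low level.

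Calls were scarcer among weakly expressed genes, whose differences are less precise. At mean levels of 0 to 4 the median SE was 0.23 and 0.254% of the genes outside the lists were called, whereas at 8 to 10 the median SE was 0.03 and 1.37% were called. Of the 165 genes, 54 that rose and 86 that fell code for proteins. For 62 of the 65 rises and 95 of the 100 falls the HET mean lay between the WT and KO means. That count is favoured by choosing genes for their gap between KO and WT, and does not by itself show an effect of 1 copy.

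The 2 cohorts did not contribute equally. The median rise of the 65 genes was 0.21 in cohort 1 and 0.12 in cohort 2, and the median fall of the 100 was -0.18 and -0.11. All but 1 of the rises and 2 of the falls had the same sign in both cohorts, a count that the pooled test favours because it used both. A test of whether the KO effect differed between cohorts called 8 genes (0.0338%), which are described with the vessels, and a test of whether it differed between sexes called 0 (limma; 1682 at an unadjusted p under 0.05). The medians for rises were 0.16 in females and 0.17 in males, and for falls -0.15 and -0.18.

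**Figure D2:**
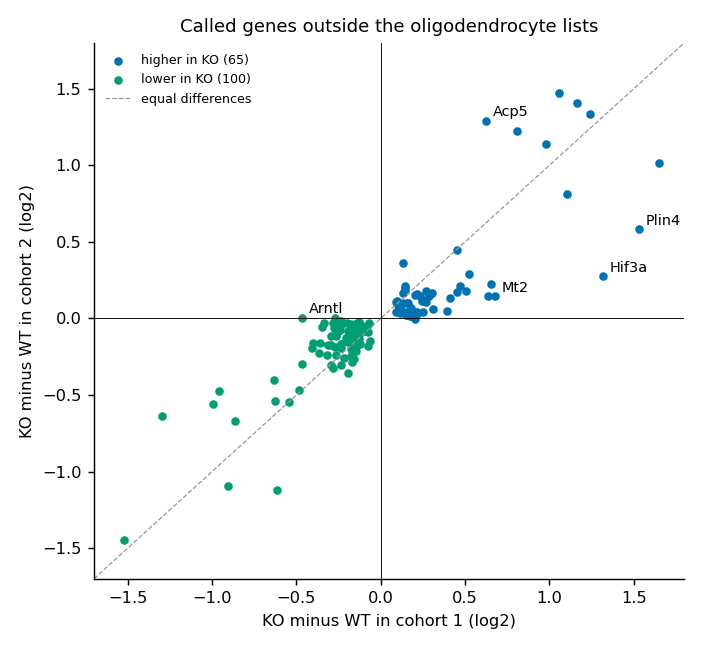
For each of the 165 called genes outside the oligodendrocyte lists, the KO minus WT difference (log2) in cohort 2 is plotted against that in cohort 1, with 6 mice per genotype in cohort 1 and 4 in cohort 2. Of the 65 genes higher in KO, 52 lie below the dashed line of equal differences, and 77 of the 100 lower ones have the larger fall in cohort 1.

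The lysosome was examined first, since Tmem106b belongs to it. Ctsd, which encodes the protease cathepsin D, was higher in KO by 0.10 on the log2 scale, or 6.9%. Its level was 10.54 at the lowest, 10.59 at the median and 10.72 at the highest in WT, against 10.64, 10.72 and 10.78 in KO (difference 0.10 ± 0.02; adjusted p = 0.00771, limma). The ranges overlapped, but all 10 KO brains lay above the WT mean, and the difference was 0.09 in cohort 1 and 0.11 in cohort 2. Ctsd was the only called member of 12 cathepsins, whose median difference was 0.01. The promoter of Ctsd is shown because it holds the E-box CACGTG (6 bases, the same on both strands), the core that TFEB, the regulator of lysosomal genes, and the clock proteins CLOCK and BMAL1 are known to bind. It is the 250 bases before the RefSeq start, chr7:142387828-142388077 (GRCm38.p6, minus strand), 5′ to 3′, with the E-boxes in capitals.
Ctsd: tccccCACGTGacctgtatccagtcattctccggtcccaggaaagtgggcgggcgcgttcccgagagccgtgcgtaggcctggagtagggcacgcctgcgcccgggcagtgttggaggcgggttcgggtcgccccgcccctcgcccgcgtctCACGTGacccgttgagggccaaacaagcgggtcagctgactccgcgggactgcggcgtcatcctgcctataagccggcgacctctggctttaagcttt
The 2 E-boxes begin 245 and 98 bases before the start. Of 32851 RefSeq promoter windows of this length, 6.0% hold at least 1 E-box. Of the 10 cathepsin genes with an entry, 5 do so in at least 1 of their windows, a count by gene that is not comparable with the share by window. The match describes the letters and does not show binding.

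Litaf and Wipi1, which act at the surface of endosomes and autophagosomes, were lower in KO. Litaf, a small membrane protein of late endosomes and lysosomes, had levels of 6.88, 7.08 and 7.22 (lowest, median, highest) in WT and 6.51, 6.78 and 6.99 in KO, with HET between them at a median of 6.92 (difference -0.28 ± 0.05, or -17.9%; adjusted p = 0.000686). All 10 KO brains were below the WT mean, by -0.32 in cohort 1 and -0.24 in cohort 2. Wipi1, a phosphoinositide-binding protein of forming autophagosomes, ran from 6.22 to 6.41 in WT and from 5.95 to 6.25 in KO (difference -0.16 ± 0.03; adjusted p = 0.00311), so that the ranges shared only a narrow band. Litaf was the only called gene of 33 lysosomal membrane proteins, whose median difference was -0.01, and Wipi1 the only one of 29 autophagy genes, with a median of 0.01.

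The rest of the lysosomal machinery gave few calls. None of 21 subunits of the vacuolar proton pump was called (limma), although 16 lay above 0, against 12625 of all 23695 genes kept. At an unadjusted p under 0.05 there were 7, against 2846 of all genes, and the median difference of the 21 was 0.03. The nearest was Atp6ap2, an accessory subunit, with 10.49 to 10.59 in WT and 10.55 to 10.71 in KO (difference 0.06 ± 0.02; adjusted p = 0.0991). Among 39 other lysosomal hydrolases 1 was called, Acp5, the tartrate-resistant acid phosphatase of macrophages and osteoclasts. It is close to the limit of detection, with 0.08 to 1.69 in WT and 0.95 to 2.75 in KO (difference 0.90 ± 0.22; adjusted p = 0.0373), and the groups overlapped widely. Its call held in 7 of the 20 fits that leave out 1 library, those without WT replicate 1, 2, 8 or 9 or KO replicate 2, 7 or 8, and was lost when the HET brains were left out of the fit, on genotype alone and without KO replicates 4 and 9 together. No gene was called among 39 endosomal Rabs, sorting nexins and Vps proteins (median 0.02) or among 23 Tmem106 relatives and dementia genes (median 0.01); at an unadjusted p under 0.05 there were 5 and 3. Trem2, a microglial receptor of the second list, had a difference of 0.18 ± 0.07 (adjusted p = 0.259).

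Among glial genes outside the oligodendrocyte lineage, Gfap and C1qb rose, and few other genes of their cell types' lists were called. Gfap, the intermediate filament protein of astrocytes, had levels of 8.78, 8.88 and 9.00 (lowest, median, highest) in WT, 8.73, 8.82 and 9.01 in HET and 8.92, 9.10 and 9.40 in KO. All 10 KO brains were above the WT mean while HET was not, and the difference was 0.22 ± 0.05, or 16.6% (adjusted p = 0.00967, limma). It was 0.13 in cohort 1 and 0.36 in cohort 2, the reverse of most of the 165 genes. Gfap was the single call among 17 astrocyte genes, whose median difference was 0.00, and among 22 genes of reactive astrocytes, whose median was -0.03 (-0.12 in cohort 1, 0.13 in cohort 2). Aqp4, the astrocyte water channel, showed 0.02 (adjusted p = 0.899).

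C1qb, a chain of the complement protein C1q that microglia make, ran from 8.55 to 8.79 in WT with a median of 8.60, and from 8.67 to 9.03 in KO with a median of 8.78 (difference 0.18 ± 0.04; adjusted p = 0.0158). Every KO brain exceeded the WT mean, and the groups overlapped between 8.67 and 8.79. The other chains, C1qa with 0.09 ± 0.04 (adjusted p = 0.344) and C1qc with 0.11 ± 0.05 (adjusted p = 0.355), were not called. C1qb was 1 call among 22 genes of homeostatic microglia, with a median of 0.04, and Ctsd was 1 call among 26 genes of disease-associated microglia, with a median of 0.05 and 21 of 26 above 0. At an unadjusted p under 0.05 there were 9 and 7, against 2846 of all 23695 genes kept. The mean level of the disease-associated list ran from 6.10 to 6.42 in WT and from 6.29 to 6.59 in KO. This mean gives more weight to the largest differences of the list, up to 0.89, than the median of 0.05 does. Clec7a, a receptor of that state, had a difference of 0.58 ± 0.18 at a low level (adjusted p = 0.138). The microglial markers Cx3cr1 and P2ry12 differed by -0.08 and -0.01 and were not called.

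Gfap and C1qb fell short of the threshold without KO replicates 4 and 9 together, the libraries with high pituitary and blood RNA, a choice made after these data were seen (Gfap 0.17, adjusted p = 0.0522; C1qb 0.17, adjusted p = 0.0501). Over all 34 alternatives that kept both cohorts and both sexes the adjusted p ranged from 0.00586 to 0.123 for Gfap and from 0.00399 to 0.491 for C1qb. C1qb was also not called when the HET brains were left out.

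Mertk, a receptor for the uptake of dying cells and debris found on astrocytes and microglia, rose by 0.24 ± 0.06 (adjusted p = 0.029). Its level was 6.50 to 6.68 in WT and 6.53 to 7.14 in KO, so that the KO brains were more spread than the WT ones and 9 of 10 lay above the WT mean. The call was lost without any one of WT replicates 4, 5, 6, 8 and 9 and KO replicates 3, 6, 8 and 9. Of 24 interferon response genes, Gbp11 alone was called, lower by -0.54 ± 0.12 (adjusted p = 0.0272), with 2.60 to 3.53 in WT and 2.08 to 2.86 in KO. The annotation has Gbp11 as a polymorphic pseudogene, a further entry of the same name overlaps it in the table and also showed -0.52 without passing (adjusted p = 0.0555), and reads of this multigene family may be shared. Its call was lost without WT replicate 4, 5 or 8 or KO replicate 1, 2, 3 or 5, without KO replicates 4 and 9 together, and when the HET brains were left out.

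**Figure D3:**
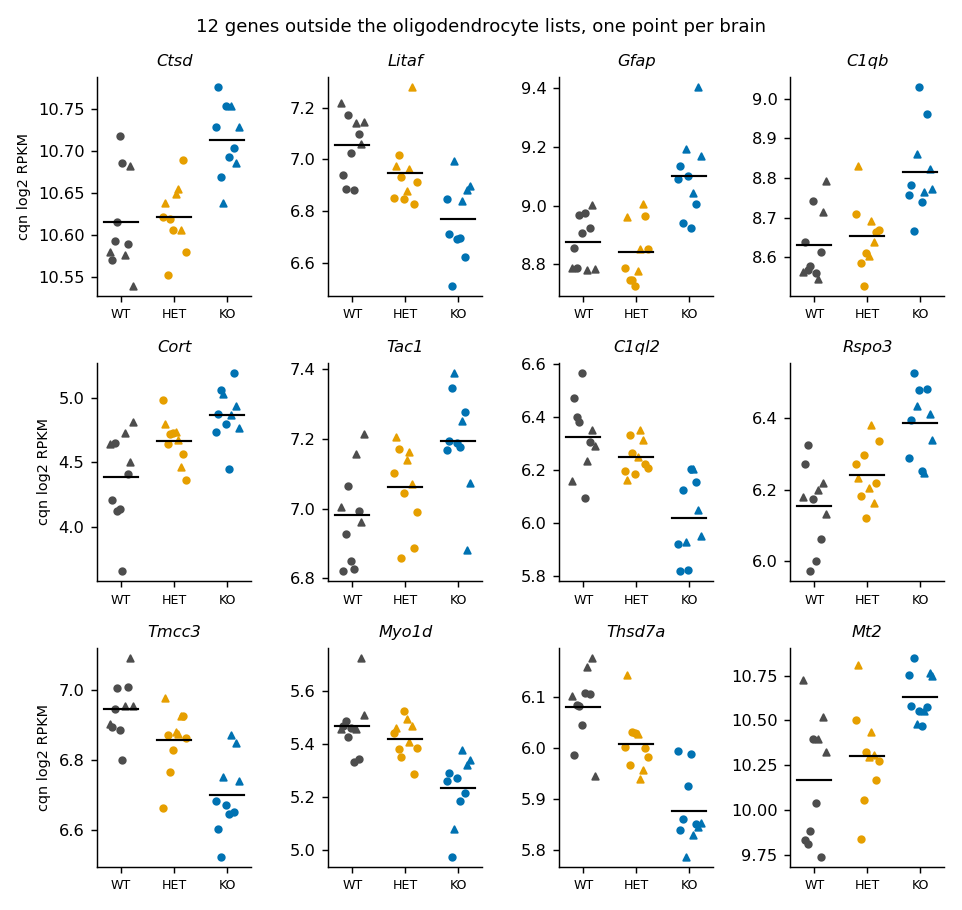
Each point is the level (cqn log2 RPKM) of 1 brain for 12 genes called outside the oligodendrocyte lists, by genotype, with circles for cohort 1, triangles for cohort 2 and a line at the mean. For each of the 12 genes the KO points lie mostly to one side of the WT mean. They overlap the WT points to a varying degree, widely for Mt2 and Tac1.

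Neurons gave no general change. Of 17 pan-neuronal genes 0 were called (2 at an unadjusted p under 0.05), with a median difference of -0.01, and of 42 glutamate and GABA receptor genes 0 were called (6 unadjusted), with a median of -0.01. Snap25, a protein of synaptic vesicle fusion, differed by 0.01 (adjusted p = 0.805). Among 22 neuropeptide genes of cortex and striatum 2 were called, both higher.

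Cort, which encodes cortistatin of cortical interneurons, had levels of 3.65, 4.45 and 4.81 in WT (lowest, median, highest), 4.36, 4.69 and 4.98 in HET and 4.45, 4.87 and 5.19 in KO. The difference was 0.49 ± 0.11, or 40.7% (adjusted p = 0.0157), and 0.65 in cohort 1 against 0.23 in cohort 2. Tac1, the precursor of substance P in striatal and other neurons, ran from 6.82 to 7.21 in WT and from 6.88 to 7.39 in KO, with 9 of 10 KO brains above the WT mean (difference 0.22 ± 0.05; adjusted p = 0.0251). The difference was 0.31 in cohort 1 and 0.06 in cohort 2, and the call was lost without KO replicate 3, 4, 5 or 8. Neither gene was called without the HET brains, nor Tac1 on genotype alone. Other striatal genes did not pass: Penk, the enkephalin precursor, differed by 0.04 (adjusted p = 0.855) and Ppp1r1b by -0.04 (adjusted p = 0.825).

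C1ql2, a secreted C1q-related protein that organizes mossy fibre synapses of the dentate gyrus, fell. Its level was 6.09, 6.33 and 6.57 in WT (lowest, median, highest), 6.16, 6.23 and 6.35 in HET and 5.82, 6.0 and 6.20 in KO. All KO brains were below the WT mean, with a difference of -0.31 ± 0.05, or -19.6% (adjusted p = 0.00168), and -0.36 and -0.23 in the 2 cohorts. It was the single call among 26 synaptic organizers (median 0.00) and among 10 hippocampal genes, where Prox1, the dentate granule cell factor, differed by -0.05 (adjusted p = 0.668).

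Genes induced by neuronal activity had the lowest median of all lists, -0.19, with 27 of 32 below 0, but 0 were called (7 at an unadjusted p under 0.05). Cohort 1 gave a median of -0.33 and cohort 2 one of -0.04. Arc, a regulator of synaptic strength, ran from 7.86 to 9.59 in WT and from 7.08 to 9.51 in KO (difference -0.66 ± 0.25; adjusted p = 0.239). The WT brains alone spanned more than this difference.

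Genes that glucocorticoids induce and genes of the circadian clock follow. Glucocorticoids are adrenal stress hormones with a daily rhythm, and the clock is a feedback loop of transcription factors that runs in most cells. Of 21 glucocorticoid-induced genes 5 were called, all higher: Plin4, Hif3a, Mt2, Zbtb16 and Mt1. The list's median difference was 0.10, and 0.19 in cohort 1 against 0.02 in cohort 2. Of 20 clock genes, Bhlhe41 was called higher and Arntl lower, with a list median of 0.10 (0.19 and -0.03 in the 2 cohorts). Over all genes kept 0.279% were called higher and 0.722% lower. Both lists were written with earlier results of these data known, so their counts here and below are descriptions. No member of either list had a called difference between cohorts, the lowest adjusted p of that test being 0.0755, for Nr1d2.

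Mt2, a metallothionein that binds zinc and copper, is among the abundant genes that rose. In WT its lowest, median and highest levels were 9.74, 10.18 and 10.73, in HET 9.84, 10.30 and 10.81, and in KO 10.47, 10.58 and 10.85. The WT brains spread widely and the KO brains sat in their upper part (difference 0.46 ± 0.09, or 37.5%; adjusted p = 0.00438). In cohort 1 all 6 KO brains (10.47 to 10.85) were above all 6 WT brains (9.74 to 10.40), whereas in cohort 2 the difference was 0.15. Its neighbour Mt1 was higher by 0.13 ± 0.03 (adjusted p = 0.0303), a call lost without WT replicate 3, 4, 6, 8 or 9 or KO replicate 1, 2 or 9, without KO replicates 4 and 9 together, without the HET brains, without the intensity trend and in the fit on genotype alone.

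The promoter of Mt2 is shown for its metal response elements, the sites of the zinc-sensing factor MTF1. It is chr8:94172368-94172617 (GRCm38.p6, plus strand, RefSeq), and capitals mark the core, searched as TGCACNC or TGCGCNC on both strands.
Mt2: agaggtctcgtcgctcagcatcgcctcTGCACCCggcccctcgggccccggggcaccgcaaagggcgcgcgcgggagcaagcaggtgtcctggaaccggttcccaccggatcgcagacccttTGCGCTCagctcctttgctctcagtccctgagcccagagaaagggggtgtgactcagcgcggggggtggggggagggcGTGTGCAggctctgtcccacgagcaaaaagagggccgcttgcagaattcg
The 3 cores begin 223, 128 and 50 bases before the start. A core of these letters occurs in 21.4% of all promoter windows, so its presence alone marks nothing.

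Plin4, a lipid droplet protein, and Hif3a, a member of the hypoxia-inducible factor family, had the largest differences of the 5, from low levels. Plin4 ran from 2.23 to 3.20 in WT and from 2.91 to 5.84 in KO (difference 1.13 ± 0.24, or 119%; adjusted p = 0.0133), and it overlaps Hdgfrp2 on the opposite strand, which was not called. Its KO spread came largely from 1 brain, replicate 3, at 5.84, while the next was 4.19, and the call held in all 20 fits that leave out 1 library. Hif3a ran from 2.64 to 3.84 in WT and from 3.23 to 5.01 in KO (difference 0.88 ± 0.20; adjusted p = 0.023), a call lost without WT replicate 8 and without the HET brains. In cohort 1 the KO brains did not overlap the WT brains for either gene, and in cohort 2 they did.

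Zbtb16, a zinc finger factor strongly induced by glucocorticoids, was higher by 0.36 ± 0.08 (adjusted p = 0.0196), with 5.75 to 6.30 in WT and 6.01 to 7.05 in KO; it was not called without the HET brains or on genotype alone. Fkbp5, a co-chaperone of the glucocorticoid receptor, had a difference of 0.30 ± 0.09 (adjusted p = 0.107), and Tsc22d3, another target, 0.16 (adjusted p = 0.401). Pdk4 went the other way (-0.19 ± 0.05, adjusted p = 0.0797, limma), as did Dusp1 (-0.40, adjusted p = 0.44). Of the 21 genes 15 lay above 0 and 6 below. In cohort 1 all KO brains exceeded all WT brains for 6 of the 21 genes and lay below them for 0, against 0.950% and 1.09% of all genes kept. In cohort 2 they exceeded them for 0 of 21 and lay below them for 1, Arrdc2, against 1.10% and 1.09%.

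For several clock genes the KO and WT brains of cohort 1 did not overlap. Arntl encodes BMAL1, the activator of the clock, and Bhlhe41 encodes DEC2, a repressor that it drives. In cohort 1, Arntl ran from 7.32 to 7.71 in WT and from 6.88 to 7.13 in KO, and Bhlhe41 from 6.56 to 6.84 in WT and from 6.88 to 7.28 in KO, with no overlap for either gene. In cohort 2 the differences were 0.00 and 0.05. Over both cohorts Arntl was lower by -0.28 ± 0.07 (adjusted p = 0.0318) and Bhlhe41 higher by 0.26 ± 0.06 (adjusted p = 0.0241). The Arntl call was lost without WT replicate 3, 4, 6 or 8 or KO replicate 1, 2, 3, 5, 6 or 8, and that of Bhlhe41 without WT replicate 4 or 6 or KO replicate 1, 3 or 8. Neither was called on genotype alone, and Arntl was not called without the HET brains, without the intensity trend or without KO replicates 4 and 9.

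Dbp, a clock output factor with a large daily cycle, missed the threshold. In cohort 1 its level was 7.71 to 8.27 in WT, 7.59 to 8.72 in HET and 8.84 to 8.97 in KO, so that the KO brains formed a narrow band above the rest. In cohort 2 it was 8.42 to 8.67, 8.43 to 8.53 and 8.28 to 8.63. The pooled difference was 0.50 ± 0.13 (adjusted p = 0.0629), and the adjusted p of the test between cohorts was 0.105. In cohort 1 all KO brains lay above all WT brains for 8 of the 20 clock genes, Bhlhe41, Ciart, Dbp, Hlf, Nr1d2, Per3, Tef and Usp2, and below them for 1, Arntl, against 0.950% and 1.09% of all genes kept; in cohort 2 this held for 0 genes in either direction. These genes belong to one feedback loop and are not independent of each other.

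Bhlhe41 is shown for its E-box. The window is chr6:145865421-145865670 (GRCm38.p6, minus strand, RefSeq), with CACGTG in capitals.
Bhlhe41: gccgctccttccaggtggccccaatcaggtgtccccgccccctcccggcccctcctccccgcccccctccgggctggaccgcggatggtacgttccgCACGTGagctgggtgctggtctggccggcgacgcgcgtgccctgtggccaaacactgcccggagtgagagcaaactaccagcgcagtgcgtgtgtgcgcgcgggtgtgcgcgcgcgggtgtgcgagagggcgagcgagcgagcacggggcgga
It begins 153 bases before the start. Of the 18 clock genes with an entry, 5 hold an E-box in this window, against 6.0% of all windows.

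With the Dbp level added to the model as a term, a choice made after these data were seen, 20 genes outside the oligodendrocyte lists were called, 18 of them among the 165. Gfap (0.26), Litaf (-0.25), Tmcc3 (-0.21), Myo1d and Thsd7a (-0.23) kept their calls, and Mt2 (0.21), Ctsd (0.09) and C1ql2 did not. Without the term Mt2 differed by 0.46 and Ctsd by 0.10. The median rise of the 65 genes went from 0.17 to 0.13 and the median fall of the 100 from -0.16 to -0.14. All 165 differences kept their sign, while the median SE grew from 0.036 to 0.042. The Dbp level itself differs between KO and WT (0.50 ± 0.13), and whether the lost calls follow the clock was not tested.

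**Figure D4:**
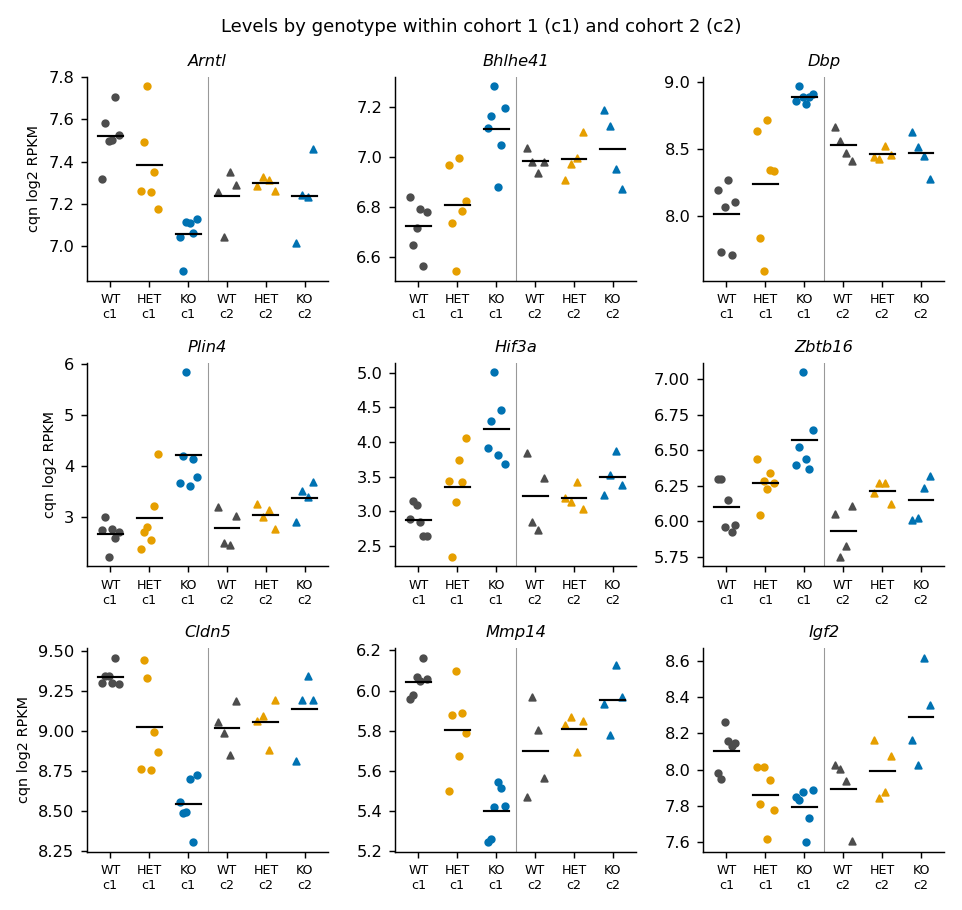
Each point is the level (cqn log2 RPKM) of 1 brain, by genotype within cohort 1 (c1, circles) and cohort 2 (c2, triangles), with a line at the mean. For Arntl, Bhlhe41, Dbp, Plin4, Hif3a, Zbtb16, Cldn5, Mmp14 and Igf2 the KO and WT points are apart in cohort 1 and, except for Igf2, overlap in cohort 2.

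Several of the 8 genes whose KO effect differed between cohorts are known from vessels, meninges or basement membranes. Cldn5, the main tight junction protein of brain endothelium, ran in cohort 1 from 9.30 to 9.46 in WT, from 8.76 to 9.44 in HET and from 8.30 to 8.72 in KO, and in cohort 2 from 8.85 to 9.19, 8.88 to 9.19 and 8.82 to 9.34. The KO brains were thus lowest in cohort 1 by -0.80 and not lower in cohort 2 (0.12), and the interaction was called (adjusted p = 0.0338, limma). Over both cohorts the difference was -0.44 ± 0.11 (adjusted p = 0.0567).

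The 7 other genes with a called interaction were Mmp14, Col4a1, Igf2, Vstm4, Zfp36l1, Fmo2 and Tprkb, and none of them was called over both cohorts. Mmp14, a membrane-bound matrix protease, differed by -0.64 in cohort 1 and 0.25 in cohort 2 (interaction adjusted p = 0.0116). Col4a1, a collagen of basement membranes, differed by -0.33 and 0.23 (adjusted p = 0.0116), and Igf2, a growth factor of the meninges and choroid plexus in the adult brain, by -0.31 and 0.40 (adjusted p = 0.0348). For Col4a1 and Igf2 all KO brains lay below all WT brains in cohort 1 and above them in cohort 2. Fmo2, a monooxygenase, went the other way, with 1.08 and -0.38. Leaving out 1 library changed the number of interaction calls to between 0 and 14, and without KO replicates 4 and 9 it was 0.

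The lists of these tissues followed the same pattern. The median of 35 collagens was -0.19 in cohort 1 and 0.11 in cohort 2, that of 20 mural and fibroblast genes -0.16 and 0.09, that of 18 choroid plexus genes -0.45 and 0.16, and that of 23 endothelial genes -0.09 and 0.04. None of the first 3 lists held a call over both cohorts (7, 4 and 2 genes at an unadjusted p under 0.05). Choroid plexus markers varied among WT brains too: Kl ran from 5.39 to 6.78 in WT and from 5.44 to 6.62 in KO. Low values weighed on the means of some of these genes. In cohort 1 Tmem72 was 2.09 at the lowest and 3.58 at the median in KO, against a WT median of 3.72. In cohort 2 Kcne2 was 4.29 at the lowest and 5.54 at the median in WT, against a KO median of 5.58. For Folr1 the cohort 1 medians were 4.39 in KO and 4.87 in WT. How much choroid plexus and meninges each sample held was not measured, and its part in these values was not tested.

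Of the endothelial genes, Mfsd2a was called higher and Tek lower in the pooled test. Mfsd2a differed by 0.45 in cohort 1 and 0.17 in cohort 2, and Tek by -0.33 and -0.03. Mfsd2a, the transporter of omega-3 lipids at the blood-brain barrier, ran from 5.60 to 6.15 in WT and from 5.94 to 6.69 in KO (difference 0.33 ± 0.08; adjusted p = 0.0353). Tek, the angiopoietin receptor, ran from 5.49 to 5.82 in WT and from 5.13 to 5.70 in KO (difference -0.21 ± 0.05; adjusted p = 0.0461). Both calls were weak. That of Mfsd2a held in 9 of the 20 fits that leave out 1 library, those without WT replicate 1, 2, 3 or 10 or KO replicate 4, 5, 7, 9 or 10, and that of Tek in 6, those without WT replicate 1, 9 or 10 or KO replicate 7, 9 or 10. Neither was called without the HET brains, without the filter on low values or without the intensity trend, nor Tek on genotype alone. Pecam1 and Cdh5, which mark endothelium, were not called (-0.17 and -0.09). Pecam1 differed by -0.31 in cohort 1 and 0.05 in cohort 2, and Cdh5 by -0.16 and 0.02.

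Apln, the ligand of the apelin receptor, fell by 0.32 on the log2 scale, with 6.97 to 7.36 in WT and 6.30 to 7.14 in KO (difference -0.32 ± 0.07; adjusted p = 0.0147). The fall was -0.16 in females and -0.49 in males, and no difference between sexes passed the test; the call was lost on genotype alone. Ctla2a, a cysteine protease inhibitor, rose by 0.42 ± 0.09 (adjusted p = 0.0139), with 4.96 to 6.03 in WT and 5.66 to 6.36 in KO, and was not called on genotype alone or without KO replicates 4 and 9 (0.40). Efna1, a ligand of Eph receptors, fell (difference -0.26 ± 0.06; adjusted p = 0.0287), a call lost without WT replicate 4 or 8 or KO replicate 2 or 3, without the HET brains and on genotype alone.

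Among falls outside all lists, Tmcc3, a protein of the endoplasmic reticulum, and Myo1d, an unconventional myosin, fell to a like degree. Tmcc3 ran from 6.80 to 7.09 in WT and from 6.52 to 6.87 in KO (difference -0.25 ± 0.03; adjusted p = 0.000126). Myo1d ran from 5.33 to 5.73 in WT and from 4.97 to 5.38 in KO (difference -0.24 ± 0.04; adjusted p = 0.00321), and the fall was nearly the same in cohort 1 (-0.22) and cohort 2 (-0.26). Aif1l, an actin-bundling protein, differed by -0.29 ± 0.06 (adjusted p = 0.00397) and Atp2a3, a calcium pump of the endoplasmic reticulum, by -0.31 ± 0.06 (adjusted p = 0.0122). Trim36, a ubiquitin ligase, differed by -0.26 ± 0.05 (adjusted p = 0.00313). For all 5 genes every KO brain was below the WT mean and the call held in all 20 fits that leave out 1 library.

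The oligodendrocyte lists are not complete, and whether Tmcc3, Myo1d, Aif1l, Atp2a3 and Trim36 fell in oligodendrocytes was not tested. Gna12, Slc44a1 and Qk, chosen after their values were seen, also fell outside the lists (-0.20, -0.12 and -0.08), and Qk encodes quaking, an RNA-binding protein known for its part in myelination. With the mean of 21 myelin protein genes as a further term, a choice made after these data were seen, 3 genes outside the lists were called. Under that term 160 of the 165 differences kept their sign, the median rise went from 0.17 to 0.15 and the median fall from -0.16 to -0.12, while the median SE grew from 0.04 to 0.08; the myelin mean itself differs by genotype. Gfap (0.41), Mt2 (0.62) and Ctsd (0.18) had larger differences in that fit and Litaf (-0.09) a smaller one; none of the 4 was called in it.

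Among rises outside the lists, that of Rspo3 was regular. Rspo3, a secreted enhancer of Wnt signalling, ran from 5.97 to 6.33 in WT and from 6.25 to 6.53 in KO (difference 0.23 ± 0.04, or 17.6%; adjusted p = 0.00397). All 10 KO brains were above the WT mean, the difference was 0.27 in cohort 1 and 0.18 in cohort 2, and the call held in all 20 fits that leave out 1 library.

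Weaker rises were those of Xdh, Tcap and Vwa7. Xdh, xanthine dehydrogenase of purine breakdown, differed by 0.43 ± 0.10 (adjusted p = 0.0317) and was called in 8 of the 20 fits that leave out 1 library, those without WT replicate 1 or 10 or KO replicate 2, 4, 5, 7, 9 or 10. Tcap, a sarcomere protein of muscle, differed by 0.37 ± 0.08 (adjusted p = 0.0252), a call lost without WT replicate 3, 5, 7 or 8 or KO replicate 4, 5 or 8, without KO replicates 4 and 9 and without the HET brains. Vwa7 differed by 0.31 ± 0.08 (adjusted p = 0.0406) and overlaps Sapcd1 on the opposite strand; its call held only without WT replicate 1, 7 or 10 or KO replicate 4, 5 or 10. Among falls, that of Zfpm1, a cofactor of GATA factors, was as weak (difference -0.24 ± 0.06; adjusted p = 0.0355), and it held only without WT replicate 1, 2, 5 or 9 or KO replicate 3, 7, 8, 9 or 10. Neither Vwa7 nor Zfpm1 was called without the HET brains, on genotype alone, without RIN, without the filter on low values or without the intensity trend, nor Zfpm1 without KO replicates 4 and 9.

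Energy metabolism, protein synthesis and transport lists held few calls. No gene was called among 37 of respiratory complex I (0 at an unadjusted p under 0.05; median 0.01), 39 of complexes II to V (2 unadjusted; median 0.02), 76 cytosolic ribosomal proteins (4 unadjusted; median 0.02), 32 of cholesterol synthesis and uptake (3 unadjusted; median 0.00), 27 of the unfolded protein response (3 unadjusted; median -0.01) or 34 kinesins and dyneins (7 unadjusted; median 0.01). Of the ribosomal proteins 62 lay above 0 and of the genes of complexes II to V 29 did; cohort 1 gave medians of 0.05 and 0.05 for these lists, and cohort 2 gave -0.01 and -0.04. Cholesterol synthesis is a large part of myelin formation, and its genes did not follow the myelin lists, whose median was -0.18 for myelin proteins. Slc16a1, the lactate and pyruvate carrier MCT1 of oligodendrocytes and endothelium, was the single call of 26 glycolysis and lactate genes. It ran from 6.91 to 7.21 in WT and from 6.57 to 7.06 in KO (difference -0.18 ± 0.04; adjusted p = 0.0237), a call lost without WT replicate 5 or 8, without the HET brains and on genotype alone. Tuba8, an alpha-tubulin, was the single call of 13 tubulins (difference -0.18 ± 0.04; adjusted p = 0.0166), lost without KO replicate 4, alone or with replicate 9, without the HET brains and on genotype alone.

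The proteasome was added as a list after the values were seen. Of 48 subunits and regulators 3 were called, all higher: Psma1 of the core (0.07 ± 0.02; adjusted p = 0.0252), Psmc6 of the regulatory particle (0.12 ± 0.03; adjusted p = 0.0418) and the activator Psme4 (0.11 ± 0.03; adjusted p = 0.0374). Of all 23695 genes kept, 0.279% were called higher and 12625 lay above 0. Of the 48 proteasome genes, 42 lay above 0, with a median of 0.04 over both cohorts, 0.08 in cohort 1 and -0.01 in cohort 2. Because the list was picked for its called members, its count is a description.

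**Figure D5:**
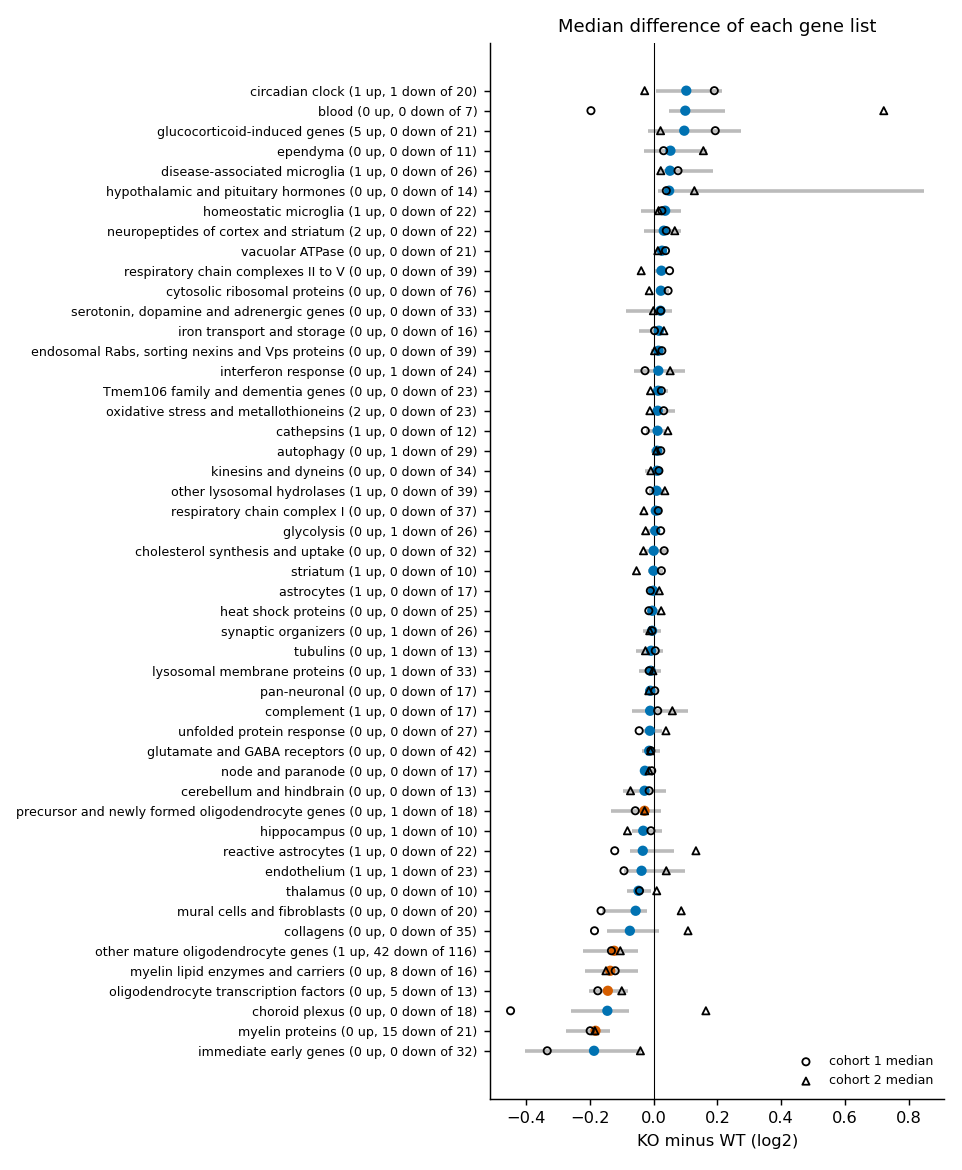
For each gene list except the proteasome the median KO minus WT difference (log2) is shown as a filled point (orange for oligodendrocyte lists, blue for others) over a bar between the quartiles of its genes, with open circles for cohort 1 and open triangles for cohort 2, and the called genes counted in the label. Outside the oligodendrocyte lists most medians lie near 0, and the cohorts stand apart for choroid plexus, blood, immediate early genes, collagens, clock and glucocorticoid-induced genes. For blood, KO replicate 9 of cohort 2 held the highest KO level of Hba-a1 (12.42), Hbb-bs (12.80) and Alas2 (8.06), against KO medians of 9.20, 10.44 and 5.13.

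The neighbourhood of Tmem106b on chromosome 6 was examined for other changes. Within 5 Mb on either side 35 other genes were kept and 1 was called, Thsd7a, a neighbour on the minus strand (chr6:12311610-12749410, mm10) that ends 320 kb before Tmem106b begins. Thsd7a encodes a membrane protein with thrombospondin repeats, known from endothelium and kidney podocytes. Its level was 5.94, 6.09 and 6.18 in WT (lowest, median, highest), 5.94, 6.0 and 6.14 in HET and 5.79, 5.85 and 5.99 in KO. The KO brains fell below the WT mean in every case (difference -0.20 ± 0.03, or -13.1%; adjusted p = 0.000623), by -0.16 in cohort 1 and -0.27 in cohort 2. The call held in all 20 fits that leave out 1 library and with the Dbp term. Of the 35 neighbours 12 lay below 0, and the nearest kept gene on the other side, Gm25737, was close to the limit of detection.

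The largest relative changes belonged to short or weakly expressed genes. Gm25184, annotated as a small nuclear RNA and lying inside Tpd52l2, had KO values above all WT values, with 4.04 to 4.94 in WT and 5.04 to 5.31 in KO (0.0717% of all genes kept had no overlap in either direction; difference 0.45 ± 0.11; adjusted p = 0.029), and the difference was 0.45 in each cohort; the call was lost without KO replicate 1, 4 or 8 and without KO replicates 4 and 9. Mir106b, a microRNA gene on another chromosome that shares only part of its name with Tmem106b, was lower by -1.53 at a mean level of 1.37, and it lies within Mcm7, which was not called. The Mir106b call was lost without KO replicate 4 (adjusted p = 0.0619) and held without KO replicates 4 and 9 together. Reads over such short genes can come from the host transcript, and RNA libraries of this kind do not measure mature microRNAs. Of the 165 genes 78 overlap another kept gene, so reads of neighbours or antisense partners may be mixed in their values; the sources used here do not give the strand setting. For 7 of the 78 the partner was called too, and for 3 the partner is in the oligodendrocyte lists, as for Galnt6os, which fell by 0.26 and is antisense to Galnt6 (-0.28).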

How the data were processed

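Whole-transcriptome RNA of 30 mouse brains was analysed from the single gene table that was deposited. TopHat2 (2.0.12) with Bowtie (1.1.0) placed the reads on mm10, per the submitters' processing notes. The authors deposited log2 RPKM values after conditional quantile normalization, which evens out effects of gene length and GC content, per the file headers; the sources used here give no counting tool, annotation or strand setting. The deposited table also holds a gene length in bases for each gene, which was not used as a measurement.

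Genes with a mean deposited value above 0 were kept (23695 of 34871). Each was fitted in limma 3.58.1 (R 4.3.3) over the 30 libraries together, with terms for genotype, cohort, RIN and sex and a moderated two-sided test with an intensity trend, and p-values were adjusted by Benjamini and Hochberg over all genes kept; adjusted p under 0.05 counts as called. Differences within a cohort or sex are differences of plain group means; whether they differ between cohorts or sexes was tested by the interaction term in limma, whose estimate also allows for the other terms. The procedure was checked on simulated data. Replicates are separate mice.

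The comparison, the gene lists and the rule for named genes were chosen with earlier results of these data known. The rule names, outside the oligodendrocyte lists, the 15 largest rises and falls among called genes with a mean of at least 4, the 5 largest of each below that, every called member of a list with up to 3 uncalled ones of lowest p, genes without overlap, called genes within 5 Mb of Tmem106b and those called in an interaction; the text gives a part of these, and names others where a list needs them. Symbols in the table that differ from present ones were matched by Ensembl identifier. Promoters are from RefSeq. Alternatives were other covariates, samples, filters, scalings and variance settings, and leaving out each library. Some genes that met the rule for named genes are not reported here.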

Additional observations from a re-analysis of the deposited data

Results flagged for a closer look

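In 94 groups of 10 brains (WT and KO for 47 genes named above), 6 had 1 brain far from the other 9, where chance flags about 1 in 20 groups. Plin4 was 5.84 in KO replicate 3 with the next brain at 4.19, and Mfsd2a was 6.69 in the same brain with the next at 6.33. Atp2a3 was 6.69 in WT replicate 10 with the next brain at 7.07, and Igf2 was 7.61 there with the next at 7.94. Myo1d was 5.73 in WT replicate 9, above the next at 5.51, and Gm25184 was 4.04 in WT replicate 2, below the next at 4.47.

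The KO minus WT difference was larger in cohort 2 than in cohort 1 by 0.90 for Cldn5, 0.895 for Mmp14, 0.77 for Vstm4, 0.71 for Igf2, 0.55 for Col4a1, 0.49 for Zfp36l1 and 0.23 for Tprkb, and lower by -1.44 for Fmo2 (log2; interaction in limma, each adjusted p under 0.05).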

How the results depend on the processing

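Over both cohorts 237 genes were called, 165 of them outside the oligodendrocyte lists and Tmem106b. These counts were 114 and 59 without the HET brains, 144 and 88 on genotype alone, 13 and 3 in females, 15 and 10 in males, 482 and 425 in cohort 1 alone and 4 and 0 in cohort 2 alone (limma; 1094 of all genes at an unadjusted p under 0.05 in cohort 2). Of the 425, 105 were among the 165, and 42.5% of all calls in cohort 1 were higher in KO against 27.8% over both cohorts. Other covariates, filters, scalings and variance settings gave 186 to 303 and 121 to 226. With terms added after these data were seen the counts were 4 and 3 (mean of the myelin proteins) and 60 and 20 (Dbp), and without KO replicates 4 and 9 together 179 and 118. Leaving out 1 library gave 138 (without WT replicate 4) to 388 (without KO replicate 10), and 81 to 315 outside the lists for the same libraries; outside the lists 62 of the 165 genes were called in all 20 of these fits and 56 in fewer than 10. The 8 genes whose KO effect differed between cohorts became 15 without the HET brains, 0 with the well column of the sample titles as a factor, 2 without the intensity trend, 5 with library weights, 0 without KO replicates 4 and 9 together, and 0 to 14 when 1 library was left out (0 without WT replicate 1 or KO replicate 10, 14 without KO replicate 8). The count for sex was 0, and 1 without KO replicates 4 and 9 together. The cause of these shifts was not tested. The fits of 1 cohort or sex hold fewer brains, and the part of that in their counts was not tested either. None of the 56 called differences recomputed gene by gene changed sign in any of these fits, although Arntl came close to 0 in cohort 2 alone (-0.01; 0.00 as a difference of plain means). No paired analysis was possible because replicate numbers only name the mice in the order of the samples. Depth is unknown, and the wide errors at low levels limit what can be called there.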

Other observations

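Fmo2 had the largest interaction of the 8 genes. In cohort 1 it ran from 1.47 to 2.5 in WT, from 2.43 to 2.74 in HET and from 3.18 to 3.52 in KO, so that KO lay above both. In cohort 2 the ranges were 2.78 to 3.35, 2.14 to 3.02 and 2.26 to 2.92, with KO in the lower part. Col4a1 was the mirror image, with 6.32 to 6.44 in WT and 6.0 to 6.19 in KO of cohort 1, against 6.03 to 6.24 and 6.25 to 6.58 in cohort 2. Igf2 ran from 7.95 to 8.26 in WT and from 7.60 to 7.89 in KO of cohort 1, against 7.61 to 8.02 and 8.03 to 8.62 in cohort 2.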
